A study of Homo sapiens with 54 samples.

Results

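Messenger RNA of 10 genes of protein folding in the endoplasmic reticulum (ER) was followed in A549 cells, an established human lung adenocarcinoma line. The genes were HSPA5, HSP90B1 and CALR (abundant chaperones), PDIA4 (a disulfide isomerase), DNAJB9 and SDF2L1 (helpers of HSPA5), HERPUD1, SEL1L and EDEM1 (ER-associated degradation) and XBP1 (a transcription factor of the response). They were taken by gene symbol, with earlier results of these data known, from a table of 58870 human genes, and 10 of 10 were found and passed the filter on low counts in every fit, with at least 222 counts in each library. The cells carried an insertless vector (empty vector [EV] cells) or a USP18 expression vector (USP18 cells). Whether either population was a pool or 1 clone is not given in the sources used here. USP18 removes the ubiquitin-like protein ISG15 from its targets, and the study asked how cells with more of it responded to compounds studied as its antagonists. Cells of both kinds received for 48 hours either DMSO as vehicle or a compound named in the labels only by code, namely CP2 at 2 or 5 µM, CP14 at 1, 2.5 or 5 µM, or CP18 at 1, 2.5 or 5 µM. The 18 groups had 3 replicates each, 54 libraries in all, and the methods mention independent biological replicates for experiments in general but do not say it of these libraries, so the p-values measure the spread between these libraries, which may be technical. Which named compound each code stands for was not established here, and nothing is said of structure.

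As background, secreted and membrane proteins fold in the ER with the help of chaperones such as HSPA5 (BiP), and misfolded chains are moved back to the cytosol and degraded, a route called ER-associated degradation (ERAD). When unfolded proteins accumulate, the sensors IRE1 (ERN1), PERK (EIF2AK3) and ATF6 start the unfolded protein response (UPR): IRE1 splices XBP1 mRNA into the form that encodes an active transcription factor, ATF6 is cut by Golgi proteases and enters the nucleus, and PERK slows translation and raises ATF4. XBP1 and ATF6 act on the promoters of chaperone and ERAD genes through short elements that include the ER stress element (ERSE). The counts are per gene, so the spliced and unspliced forms of XBP1 mRNA could not be told apart.

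Totals ran from 16673228 to 25609062 expected counts per library (median 19701304), and expression is given as CPM, the count relative to the TMM-scaled size of its library. USP18 mRNA ranged from 8.65 to 12.3 CPM in the 27 libraries of EV cells and from 953 to 2115 CPM in the 27 libraries of USP18 cells, so it followed the label in every library. It also moved with treatment within USP18 cells, from 1316 ± 17.8 CPM with vehicle to 2041 ± 81.8 CPM with 5 µM CP14 and 988 ± 31.1 CPM with 1 µM CP18 (SD, n = 3). The summed level of 5 epithelial markers (KRT8, KRT18, KRT19, EPCAM, CDH1) ran from 2995 to 11637 CPM, and was 11285 to 11560.1 CPM with vehicle and 4332 to 4592 CPM with 5 µM CP14 in EV cells, against 7239 to 7435 CPM and 2995 to 3193 CPM in USP18 cells. This sum was mostly KRT8 and KRT18 (medians of 3866 and 3623 CPM). CDH1, KRT19 and EPCAM had medians of 78.9, 15.6 and 3.61 CPM. Endothelial (3 genes) and fibroblast (4) markers summed to at most 0.596 and 15.1 CPM, the latter mostly COL1A1 (3.69 to 14.1 CPM), and the fibroblast sum was 11.6 to 14.6 CPM with vehicle and 6.19 to 6.71 CPM with 5 µM CP14 in EV cells, against 7.91 to 8.23 and 4.08 to 4.45 CPM in USP18 cells. The fibroblast marker DCN and the T cell marker CD3E were at or under 3 counts in 54 of 54 libraries and the leukocyte marker PTPRC in 53. CD14, a monocyte marker, was above that floor in all but 1 library, with a median of 2.37 CPM, and was 2.72 to 3.08 CPM with vehicle and 0.497 to 1.19 CPM with 5 µM CP14 in EV cells, against 2.36 to 2.55 and 0.0495 to 0.255 CPM in USP18 cells. Their part in the results below was not tested. In bulk RNA a lower level per cell and fewer cells with that mRNA cannot be told apart.

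The ERSE was first described in promoters of HSPA5, HSP90B1 and CALR, so the promoter stretches that carry an exact match to a UPR element are shown before the values. Promoter windows from RefSeq on GRCh38.p14 (250 bases before to 50 bases after the start of the gene; the first window listed where there were 2, as for XBP1 and PDIA4) were found for 10 of 10 genes and searched on both strands for the ERSE (CCAAT, any 9 bases and CCACG), the related ERSE-II (ATTGG, any 1 base and CCACG) and the UPR element (UPRE), TGACGTGG. An exact ERSE was present in 4 of the 10 windows (HSPA5, HSP90B1, XBP1 and CALR) against 27 of all 35116 windows (0.0769%), and an exact ERSE-II in 2 (HERPUD1 and SDF2L1) against 19 (0.0541%). As the ERSE was described on promoters of HSPA5, HSP90B1 and CALR, their matches were fixed in advance. The genes were also chosen as members of this response, so the counts beside all windows are no test of enrichment. An exact UPRE was in 0 of the 10 windows and in 256 of all windows (0.729%); with 1 mismatch it was in 2 (HSP90B1 and DNAJB9) and in 17.2% of all windows. With 1 mismatch allowed, the ERSE was in 7 of the 10 and in 1.55% of all windows, and the ERSE-II in 4 and in 1.23%. Each stretch below is written 5′ to 3′ on the strand of its gene, with the fixed letters of the motif in capitals and 5 bases on either side.
HSPA5, ERSE, chr9:125241386-125241414, minus strand: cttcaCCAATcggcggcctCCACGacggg
HSP90B1, ERSE, chr12:103930211-103930239, plus strand: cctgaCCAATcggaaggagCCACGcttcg
HSP90B1, ERSE, chr12:103930316-103930344, plus strand: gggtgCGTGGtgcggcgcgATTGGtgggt
HERPUD1, ERSE-II, chr16:56932020-56932040, plus strand: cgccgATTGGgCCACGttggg
SDF2L1, ERSE-II, chr22:21642109-21642129, plus strand: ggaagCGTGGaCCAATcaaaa
XBP1, ERSE, chr22:28800598-28800626, minus strand: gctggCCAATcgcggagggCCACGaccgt
CALR, ERSE, chr19:12938379-12938407, plus strand: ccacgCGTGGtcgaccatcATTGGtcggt
The HSPA5 element begins 66 bases, the XBP1 element 52 bases and the HERPUD1 element 117 bases before the RefSeq start, and all 3 are in the orientation of the gene. HSP90B1 carries 2 elements in opposite orientations, 194 and 89 bases before its start, while those of SDF2L1 (188 bases) and CALR (225 bases) are inverted. The GENCODE record of HSP90B1 begins upstream of the RefSeq start used here, so that both of its elements lie inside the gene coordinates given below. A match to these letters is a description of the sequence, and no binding was measured.

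With vehicle the 10 genes differed widely in abundance. Per kilobase of canonical transcript, EV cells had the most of the chaperones HSP90B1 (481 ± 7.89 CPM per kb; ENSG00000166598.15, chr12:103930107-103953931, plus strand; the ER form of HSP90) and CALR (348 ± 2.53; ENSG00000179218.13, chr19:12938578-12944489, plus strand; calreticulin, a calcium-binding lectin). HSPA5 followed at 186 ± 2.74 CPM per kb (ENSG00000044574.8, chr9:125234853-125241382, minus strand), then PDIA4 at 146 ± 3.18 (ENSG00000155660.11, chr7:149003062-149028662, minus strand) and XBP1 at 91.7 ± 5.37 (ENSG00000100219.16, chr22:28794555-28800597, minus strand). The remaining genes were far lower: SDF2L1 26.4 ± 1.26 (ENSG00000128228.5, chr22:21642302-21644299, plus strand), SEL1L 24.0 ± 0.674 (ENSG00000071537.14, chr14:81471547-81533853, minus strand) and HERPUD1 21.0 ± 0.486 CPM per kb (ENSG00000051108.15, chr16:56932142-56944864, plus strand). EDEM1 had 13.7 ± 0.305 (ENSG00000134109.11, chr3:5187646-5219958, plus strand) and DNAJB9 10.4 ± 0.725 CPM per kb (ENSG00000128590.5, chr7:108569867-108574850, plus strand; SD, n = 3 throughout; coordinates are those of the gene on GRCh38).

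Before any compound, USP18 cells already had more of most of these mRNAs than EV cells. Of the 10 genes, 8 were higher, 1 was lower and 1 was not called, where 57.6% of all genes tested were called, 29% higher and 28.7% lower (edgeR's quasi-likelihood test with Benjamini-Hochberg adjustment, adjusted p under 0.05). EDEM1, a lectin that extracts misfolded glycoproteins for ERAD, was at 81.8, 85.3 and 84.5 CPM in the EV libraries and 123, 126 and 124 CPM in the USP18 libraries, a log2 difference of 0.56 ± 0.031 (SE, adjusted p = 4.4e-11). HSPA5 was at 721, 729 and 742 CPM against 1018, 999 and 1023 CPM, a log2 difference of 0.46 ± 0.023 (SE, adjusted p = 1.2e-11), and HSP90B1 differed by 0.46 ± 0.024 (SE, adjusted p = 2.1e-11). In both genes the groups were far apart relative to the spread within them. Smaller differences in the same direction were found for PDIA4 (0.27), XBP1 (0.26), SDF2L1 (0.19), SEL1L (0.15) and CALR (0.15); the call for SDF2L1 was lost on leaving out any 1 of 4 of the 6 libraries and with DESeq2. HERPUD1, an ER membrane protein that assembles the ERAD ubiquitin ligase, went the other way, with 58.5, 61.3 and 59.9 CPM in EV cells and 43.5, 44.0 and 43.7 CPM in USP18 cells, a log2 difference of -0.46 ± 0.043 (SE, adjusted p = 4.7e-08). DNAJB9 did not pass the test (0.11 ± 0.071 (SE, adjusted p = 0.216)).

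Across the 8 combinations of compound and dose in both kinds of cell, 80 of 160 comparisons of a gene with its vehicle passed the test, 9 higher and 71 lower, where 8.64% of all genes over the same comparisons were higher and 9.27% lower. The 9 higher values all came from 5 µM CP14, the only treatment with a called rise. The calls were unevenly divided between the vectors, with 25 of 80 in EV cells (5 higher, 20 lower, beside 6.44% and 7.11% of all genes) and 55 of 80 in USP18 cells (4 higher, 51 lower, beside 10.8% and 11.4%); the difference in response is tested gene by gene further on. XBP1 was the most often called, lower in 14 of its 16 comparisons and higher in 0, followed by CALR (lower in 10) and SEL1L (lower in 9 and higher in 1). HERPUD1 was called in 3 of 16, HSPA5 in 6 and SDF2L1 in 5. Each compound and dose was compared with the same 6 vehicle libraries, so the comparisons are not independent of each other.

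**Figure D1:**
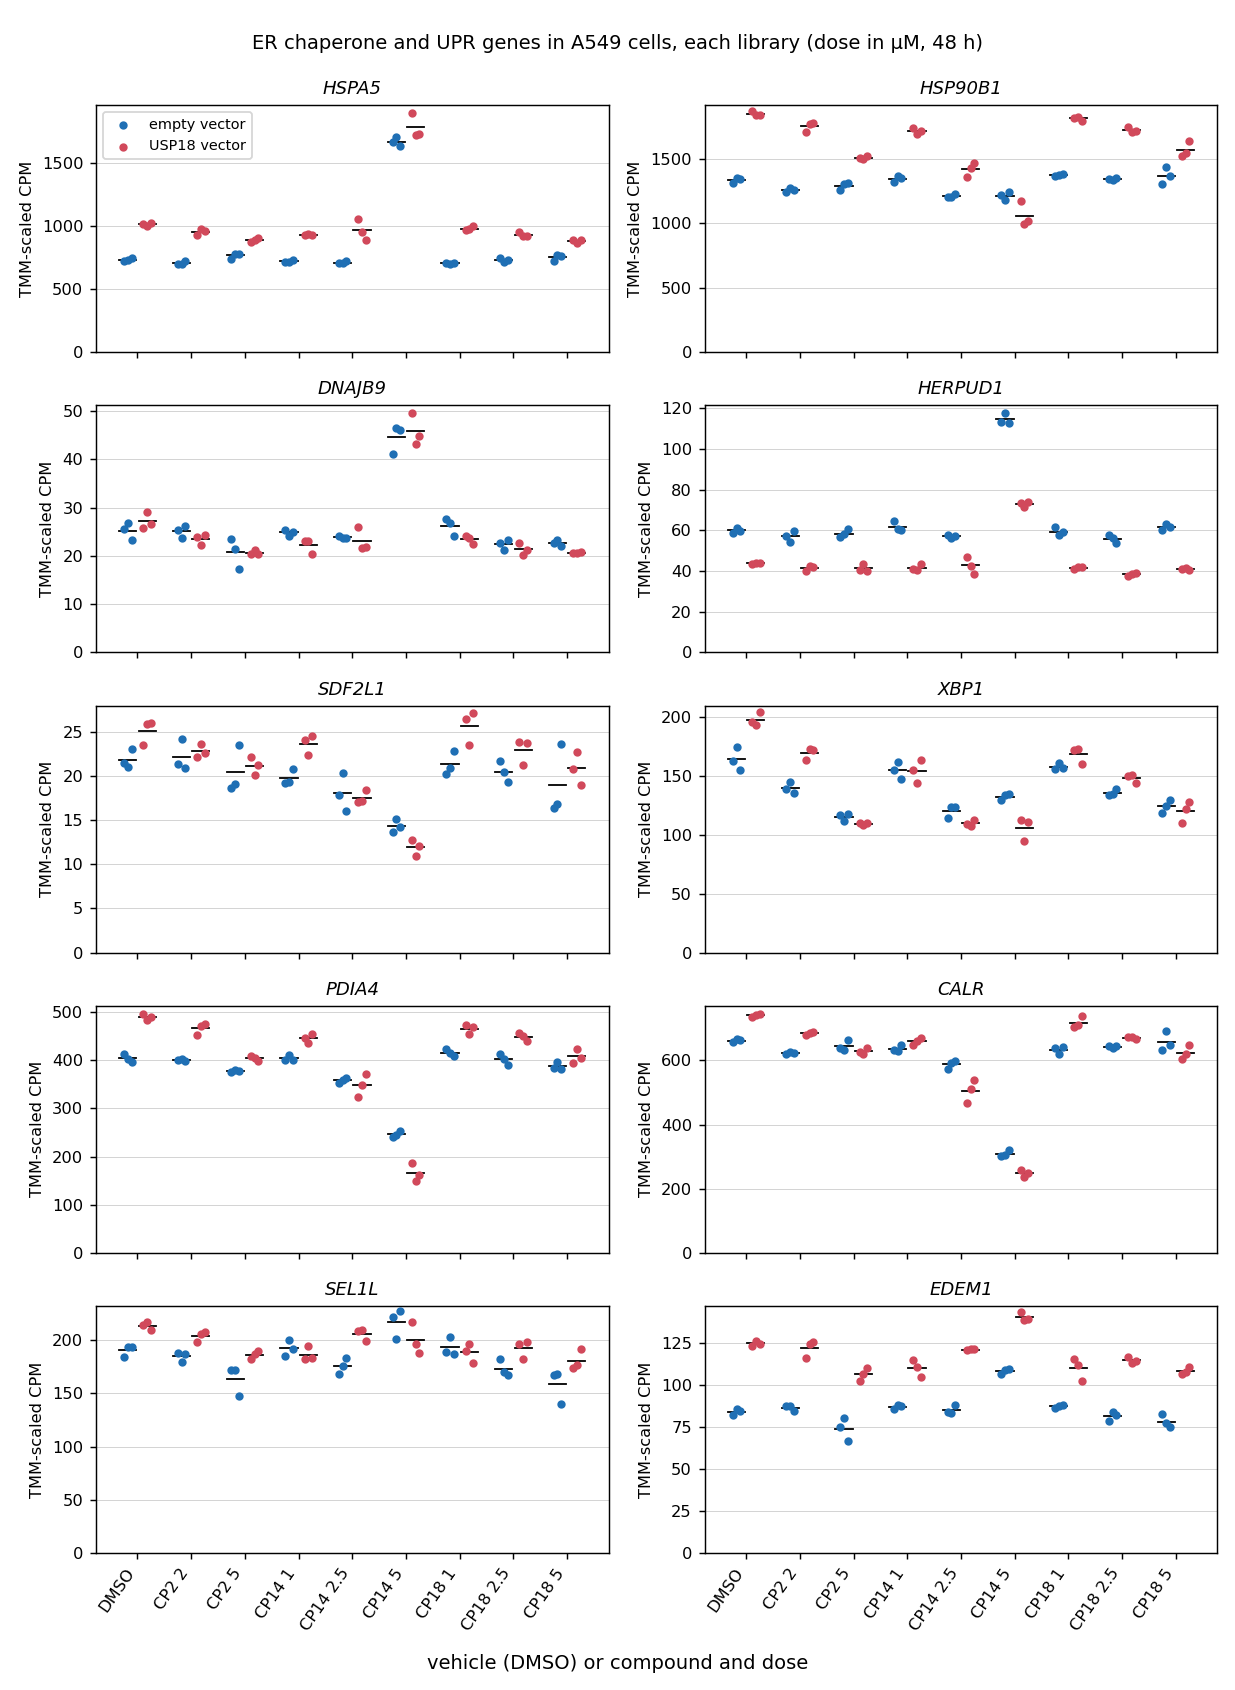
Level of each of the 10 genes (CPM) in all 54 libraries, 1 panel a gene, with 1 point a library, vehicle and compound with dose (µM) along the horizontal axis, EV cells in blue and USP18 cells in red; black bars mark group means (n = 3) and every vertical axis starts at 0. With 5 µM CP14, HSPA5, DNAJB9 and HERPUD1 stand above every other treatment within the same vector, whereas PDIA4, CALR and SDF2L1 have their lowest group means within each vector.

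**Figure D2:**
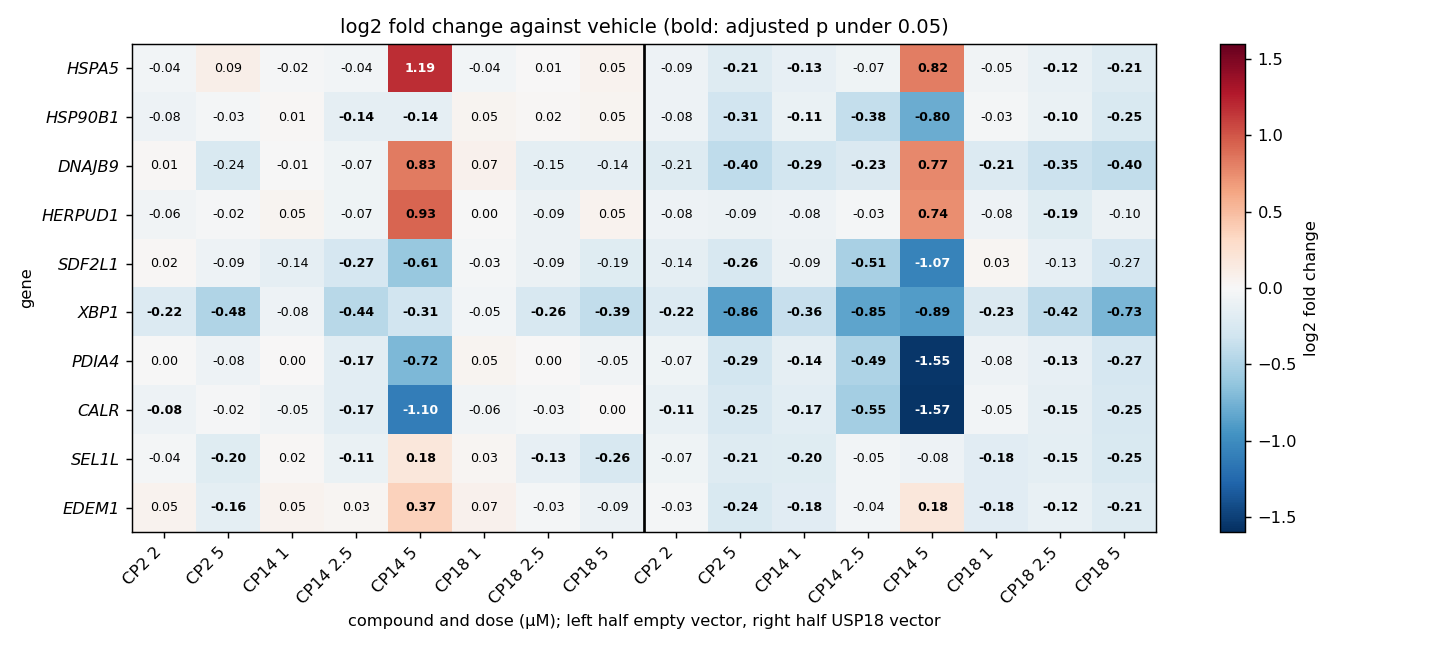
Fitted log2 fold change against vehicle for the 10 genes (rows) at each compound and dose (columns) in EV cells (left of the line) and USP18 cells (right), coloured from blue (lower) to red (higher) with the value printed, in bold where the adjusted p was under 0.05. The 5 µM CP14 columns hold all 9 called rises, up to 1.19 for HSPA5 in EV cells, and the deepest fall, -1.57 for CALR in USP18 cells.

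At 5 µM CP14 the genes moved in opposite directions. In EV cells 5 rose (HSPA5, HERPUD1, DNAJB9, EDEM1 and SEL1L) and 5 fell (CALR, PDIA4, SDF2L1, XBP1 and HSP90B1), and in USP18 cells 4 rose and 5 fell, with SEL1L not called. This treatment changed much of the transcriptome, with 63.2% of all genes tested called in EV cells (31% higher, 32.1% lower) and 68.6% in USP18 cells (34.4% higher, 34.3% lower), so that a call at this dose is common. The median log2 fold change of the 10 genes was 0.022 in EV and -0.44 in USP18 cells, beside 0.0050 and 0.011 over all genes tested. A log2 fold change beyond 1 in either direction together with the adjusted p was reached by 13.8% and 18% of all genes, and by 2 of the 10 genes in EV cells (HSPA5 up, CALR down) and 3 in USP18 cells (SDF2L1, PDIA4 and CALR, all down).

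Among the abundant chaperones, HSPA5 rose and CALR and HSP90B1 fell. HSPA5, the chaperone that also holds the UPR sensors inactive, was at 721, 729 and 742 CPM with vehicle and 1663, 1699.6 and 1629.9 CPM with 5 µM CP14 in EV cells, 2.28 times the vehicle level. In USP18 cells it went from 1018, 999 and 1023 to 1895, 1718 and 1726 CPM, 1.77 times. No treated library came near a vehicle library of its own vector. The log2 fold changes were 1.19 ± 0.037 (SE, adjusted p = 7.2e-17) and 0.82 ± 0.037 (SE, adjusted p = 2.0e-14), and the response was smaller in USP18 cells (interaction -0.37 ± 0.052 (SE, adjusted p = 1.7e-05)). CALR had 657, 666 and 662 CPM with vehicle and 303, 304 and 319 CPM after treatment of EV cells. Its level in USP18 cells went from 737, 742 and 745 to 257, 237 and 249 CPM. Calreticulin mRNA thus fell by 53.4% in EV cells and fell by 66.4% in USP18 cells, with treated and vehicle libraries fully separate. On the log2 scale the changes were -1.10 ± 0.034 (SE, adjusted p = 5.7e-17) and -1.57 ± 0.034 (SE, adjusted p = 1.7e-19). HSP90B1 changed little in EV cells, from 1313, 1354 and 1347 to 1218, 1181 and 1247 CPM (-0.14 ± 0.045 (SE, adjusted p = 0.0104)). It fell further in USP18 cells, from 1875, 1840.2 and 1844 to 1173, 995 and 1016 CPM (-0.80 ± 0.045 (SE, adjusted p = 1.3e-12)), where replicate 1 was the highest of the treated libraries. For both genes the fall was larger in USP18 cells, with interactions of -0.47 ± 0.048 (SE, adjusted p = 2.7e-07) for CALR and -0.66 ± 0.064 (SE, adjusted p = 1.6e-07) for HSP90B1.

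PDIA4, which forms and rearranges disulfide bonds, had the largest difference in response between the vectors. EV cells had 414, 403 and 396 CPM with vehicle and 240.4, 244 and 253 CPM with 5 µM CP14, and USP18 cells 496, 484 and 490.2 and 187, 149 and 162 CPM. The order of the vectors therefore turned round: USP18 cells had more PDIA4 mRNA with vehicle and less after treatment. The log2 fold changes were -0.72 ± 0.052 (SE, adjusted p = 1.0e-10) and -1.55 ± 0.053 (SE, adjusted p = 2.2e-16), and the interaction was -0.83 ± 0.074 (SE, adjusted p = 4.8e-08). SDF2L1, a partner of HSPA5 that keeps misfolded proteins in solution, fell from 21.4, 21.0 and 23.0 to 13.6, 15.1 and 14.2 CPM in EV cells. In USP18 cells it fell from 23.5, 25.8 and 25.9 to 12.7, 11.0 and 12.0 CPM. No libraries overlapped in either vector, and the log2 fold changes were -0.61 ± 0.077 (SE, adjusted p = 5.9e-07) and -1.07 ± 0.078 (SE, adjusted p = 8.6e-11) with an interaction of -0.45 ± 0.11 (SE, adjusted p = 0.00376). DNAJB9, another helper of HSPA5 (a J-domain protein, ERdj4), behaved in the opposite way. Its levels were 25.5, 26.7 and 23.3 CPM with vehicle and 41.1, 46.5 and 46.1 CPM with treatment in EV cells, and 25.8, 29.1 and 26.6 and 49.6, 43.3 and 44.8 CPM in USP18 cells. The rise was 0.83 ± 0.071 (SE, adjusted p = 1.5e-09) and 0.77 ± 0.070 (SE, adjusted p = 3.5e-09) on the log2 scale, and a difference between the vectors was not detected (interaction -0.065 ± 0.10 (SE, adjusted p = 0.688), 95% interval -0.27 to 0.14).

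The 3 ERAD genes rose in EV cells. HERPUD1 was at 58.5, 61.3 and 59.9 CPM with vehicle and 113, 117 and 113 CPM with 5 µM CP14, 1.91 times as much (0.93 ± 0.037 (SE, adjusted p = 4.2e-15) on the log2 scale). In USP18 cells, which started lower, it went from 43.5, 44.0 and 43.7 to 73.4, 71.4 and 73.9 CPM (0.74 ± 0.040 (SE, adjusted p = 4.9e-13)). Treated and vehicle libraries did not overlap in either vector, and the rise was smaller in USP18 cells (interaction -0.19 ± 0.055 (SE, adjusted p = 0.0127)). EDEM1 rose from 81.8, 85.3 and 84.5 to 106, 109 and 109.5 CPM in EV cells (0.37 ± 0.035 (SE, adjusted p = 8.4e-09)) and from 123, 126 and 124 to 143, 138 and 139 CPM in USP18 cells (0.18 ± 0.033 (SE, adjusted p = 7.1e-05)). The USP18 cells thus kept the higher level of EDEM1 at this dose, with a smaller rise (interaction -0.19 ± 0.048 (SE, adjusted p = 0.00542)). SEL1L, the adaptor of the HRD1 ubiquitin ligase, changed less, from 184, 193 and 193 to 221, 201 and 227 CPM in EV cells (0.18 ± 0.048 (SE, adjusted p = 0.00233)). In USP18 cells its values were 214, 217 and 209 CPM with vehicle and 217, 196 and 188 CPM with treatment, and the groups overlapped (-0.083 ± 0.048 (SE, adjusted p = 0.132)); the interaction was -0.27 ± 0.068 (SE, adjusted p = 0.00542). XBP1, the transcription factor that drives many of these genes, fell in both kinds of cell. EV cells had 162, 175 and 155 CPM of XBP1 with vehicle and 129, 134 and 135 CPM with treatment (-0.31 ± 0.053 (SE, adjusted p = 3.1e-05)), and USP18 cells 196, 194 and 204 and 113, 94.5 and 111 CPM (-0.89 ± 0.053 (SE, adjusted p = 2.5e-12)). The fall was larger in USP18 cells, with an interaction of -0.59 ± 0.075 (SE, adjusted p = 4.8e-06).

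At 2.5 µM CP14 none of the 10 genes was called higher in either vector. From here on, the share of all genes tested that were called is given as the background. It is the share in the direction counted, or in either direction where the calls went both ways or none passed. In EV cells 6 of the 10 genes were lower, where 8.07% of all genes tested were lower, led by XBP1 with 115, 123 and 124 CPM (-0.44 ± 0.043 (SE, adjusted p = 5.5e-06)). SDF2L1 (-0.27), PDIA4 (-0.17), CALR (-0.17), HSP90B1 (-0.14) and SEL1L (-0.11) fell by less, and the calls for SDF2L1 and SEL1L were each lost on leaving out any 1 of 4 of the 6 libraries. In USP18 cells 6 genes were lower as well (background 16.4%), with XBP1 at 109, 107 and 113 CPM against 196, 194 and 204 CPM with vehicle (-0.85 ± 0.044 (SE, adjusted p = 5.0e-10)). That fall in XBP1 was near the -0.89 found at 5 µM, although the doses were not compared by a test. CALR (-0.55 ± 0.038 (SE, adjusted p = 7.6e-09)), SDF2L1 (-0.51 ± 0.079 (SE, adjusted p = 6.1e-05)) and PDIA4 (-0.49 ± 0.039 (SE, adjusted p = 3.6e-08)) fell most after it, then HSP90B1 (-0.38) and DNAJB9 (-0.23), the last with overlapping groups and a call lost on leaving out any 1 of 4 libraries. HSPA5, which had risen in both vectors at 5 µM, was at 709 ± 8.49 CPM in EV cells (-0.040 ± 0.042 (SE, adjusted p = 0.588)) and 964 ± 83.2 CPM in USP18 cells (-0.065 ± 0.041 (SE, adjusted p = 0.25); SD, n = 3). HERPUD1 and EDEM1 were likewise not called at 2.5 µM, with log2 fold changes from -0.065 to 0.025.

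At 1 µM CP14, EV cells showed 0 called genes of the 10 with edgeR and 0 with DESeq2 (1 at an unadjusted p under 0.05; background 0.861%), and the bound of a 95% interval farthest from 0 was 0.28 on the log2 scale. USP18 cells at the same dose had 8 lower genes (background 7.94%), namely all but HERPUD1 and SDF2L1. XBP1 was at 155, 144 and 164 CPM (-0.36 ± 0.048 (SE, adjusted p = 5.9e-05)), followed by DNAJB9 (-0.29 ± 0.071 (SE, adjusted p = 0.00903)) and SEL1L (-0.20 ± 0.032 (SE, adjusted p = 4.5e-04)). DNAJB9 was not called without vehicle replicate 2 (-0.24). The other falls at 1 µM were between -0.11 (HSP90B1) and -0.18 (EDEM1) on the log2 scale.

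CP18 lowered most of the 10 genes in USP18 cells at 2.5 and 5 µM, and no rise was called in either vector. At 5 µM, 8 of the 10 genes were lower in USP18 cells (background 6.4%) and 2 in EV cells (background 4.3%). XBP1 was at 118, 124 and 129.8 CPM in EV cells (-0.39 ± 0.058 (SE, adjusted p = 4.3e-04)) and 111, 122 and 128 CPM in USP18 cells (-0.73 ± 0.057 (SE, adjusted p = 8.4e-08)), below all vehicle libraries of the same vector. In USP18 cells DNAJB9 changed by -0.40 ± 0.071 (SE, adjusted p = 9.7e-04), with 20.7, 20.6 and 20.8 CPM, and PDIA4, CALR, HSP90B1, SEL1L, HSPA5 and EDEM1 by -0.21 to -0.27. SEL1L was the other called gene in EV cells (-0.26 ± 0.057 (SE, adjusted p = 0.00921)), not called without vehicle replicate 2 (-0.24). In USP18 cells SEL1L was not called without CP18 replicate 1 (-0.21). At 2.5 µM, 9 genes were lower in USP18 cells (background 7%), from -0.10 for HSP90B1 (EDEM1 was not called without vehicle replicate 2, -0.11, and HSP90B1, SEL1L and EDEM1 not with all 54 libraries in 1 fit) to -0.42 for XBP1, and XBP1 (-0.26) and SEL1L (-0.13, lost without any 1 of 4 libraries) in EV cells (background 3.63%). At 1 µM the called genes were XBP1 (-0.23), DNAJB9 (-0.21, lost without any 1 of 4 libraries), SEL1L (-0.18) and EDEM1 (-0.18) in USP18 cells (background 8%). In EV cells 1 µM CP18 gave 0 calls with edgeR and 0 of the 8 given an adjusted p by DESeq2, and 1 gene at an unadjusted p under 0.05 (background 0.368%).

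CP2 lowered XBP1 in both vectors and most of the 10 genes in USP18 cells at 5 µM. At 5 µM, 9 of the 10 genes were lower in USP18 cells (background 10.3%), all but HERPUD1. XBP1 went from 196, 194 and 204 to 110.5, 108 and 110.1 CPM there (-0.86 ± 0.042 (SE, adjusted p = 9.6e-11)), and from 162, 175 and 155 to 117, 112 and 118 CPM in EV cells (-0.48 ± 0.043 (SE, adjusted p = 1.1e-06)). Treated USP18 libraries lay below all 3 vehicle libraries for each of the 10 genes, also for HERPUD1 (-0.093, not called), where 38.7% of all genes had groups that did not overlap. The 9 called genes had log2 fold changes from -0.40 (DNAJB9) to -0.21 (HSPA5 and SEL1L) besides XBP1; the call for SDF2L1 (-0.26) was lost without any 1 of 4 libraries. Besides XBP1, EV cells had lower SEL1L (-0.20) and EDEM1 (-0.16, lost without any 1 of 4 libraries), 3 of the 10 in all (background 6.83%). At 2 µM only XBP1 and CALR passed the test, in either vector (background 1.04% in EV and 0.816% in USP18 cells). The log2 fold change of XBP1 was -0.22 in EV and -0.22 in USP18 cells, and that of CALR -0.080 (lost without any 1 of 5 of the 6 libraries) and -0.11.

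Whether the response differed between USP18 and EV cells was tested as an interaction for each gene and treatment, where a negative value means a lower log2 fold change in USP18 cells, such as a larger fall or a smaller rise. Of 80 such tests 29 passed, and all 29 were negative, while 73 of the 80 values were below 0. The 29 came from 5 µM CP14 (9 genes, where 14.4% of all genes tested were called negative), 1 µM CP14 (7, background 3.18%), 5 µM CP2 (5, background 0.654%), 2.5 µM CP14 (4, background 3.92%), 5 µM CP18 (2, background 0.223%) and 1 µM CP18 (2, background 4.41%). XBP1 passed in 4 of its 8 tests, at -0.59 (5 µM CP14), -0.41 (2.5 µM CP14), -0.38 (5 µM CP2) and -0.29 (1 µM CP14), while HSP90B1 passed in 5. With 5 µM CP2, for example, XBP1 averaged 116 ± 3.22 CPM in EV and 109.7 ± 1.10 CPM in USP18 cells, against 164 ± 9.62 and 198 ± 5.70 CPM with vehicle. Of the 10 genes 8 had a higher vehicle level in USP18 cells, and the same vehicle libraries enter that difference and the interaction. At 1 µM CP14 most of the 7 calls depended on single libraries: HSPA5 was lost in 11 of the 12 fits without 1 library, CALR in 10, HSP90B1 and PDIA4 in 8 each, XBP1 in 3 and SEL1L and EDEM1 in 0; with all 54 libraries in 1 fit only XBP1 and EDEM1 were still called, and HSPA5 and CALR were also lost with the replicate block and with no filter beyond a count above 0. With 5 µM CP2, PDIA4 was lost in 5 of 12 and CALR in 1 (-0.21 without vehicle replicate 1 of EV cells). With 5 µM CP18 the calls for HSPA5 and HSP90B1 were lost in 9 and 8 of 12, and that for HSPA5 also with the replicate block. With 1 µM CP18 the call for SEL1L was lost in 4 of 12 and with all 54 libraries in 1 fit. At 2 µM CP2 0 genes passed with edgeR and 0 of the 8 given an adjusted p by DESeq2 (1 at an unadjusted p under 0.05; background 0.0569%), and at 2.5 µM CP18 0 passed with edgeR, 4 of 7 with DESeq2 and 5 at an unadjusted p under 0.05 (background 0.197%). USP18 mRNA in USP18 cells itself changed by 0.64, -0.14 and -0.33 on the log2 scale with 5, 2.5 and 1 µM CP14. With 5, 2.5 and 1 µM CP18 it changed by -0.24, -0.30 and -0.41. With CP2 the changes were -0.088 at 2 µM and -0.051 (not called) at 5 µM. The part of USP18 mRNA in these differences was not tested.

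The compounds were compared directly at matched doses, in 10 comparisons (5 pairs of compound and dose in each vector) of 10 genes, of which 45 of 100 passed after adjustment over all genes within a comparison and 47 after adjustment over all genes and comparisons together. CP14 and CP18 differed most at 5 µM, where 9 of the 10 genes were called in EV cells (background 57.5%) and 10 in USP18 cells (background 64.9%). HSPA5 was at 1663, 1699.6 and 1629.9 CPM with CP14 and 725, 771 and 761 CPM with CP18 in EV cells, a log2 difference of 1.14 ± 0.047 (SE, adjusted p = 7.6e-14), and in USP18 cells the difference was 1.03 ± 0.047 (SE, adjusted p = 2.0e-13). DNAJB9 and HERPUD1 were also higher with CP14, by 0.97 and 0.89 in EV cells and by 1.17 and 0.84 in USP18 cells, as were EDEM1 (0.46 and 0.39) and SEL1L (0.45 and 0.17, the latter lost without any 1 of 4 of the 6 libraries, with RLE size factors, with the replicate block and with DESeq2). CALR was lower with CP14, at 257, 237 and 249 CPM against 604, 620.2 and 647 CPM in USP18 cells (-1.32 ± 0.050 (SE, adjusted p = 1.1e-14)), and PDIA4 likewise (-1.28 ± 0.063 (SE, adjusted p = 6.0e-13)). In EV cells the falls of these 2 genes relative to CP18 were -1.10 and -0.66, with HSP90B1 at -0.18 and SDF2L1 at -0.42, the last -0.22 and not called without CP18 replicate 3. XBP1, by contrast, did not pass between the compounds in EV cells (0.087 ± 0.066 (SE, adjusted p = 0.272), 95% interval -0.051 to 0.22) and was -0.17 in USP18 cells, a call lost without any 1 of 3 libraries. Against vehicle, 5 µM CP18 had given -0.39 and -0.73 for XBP1 and 5 µM CP14 -0.31 and -0.89, in EV and USP18 cells.

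**Figure D3:**
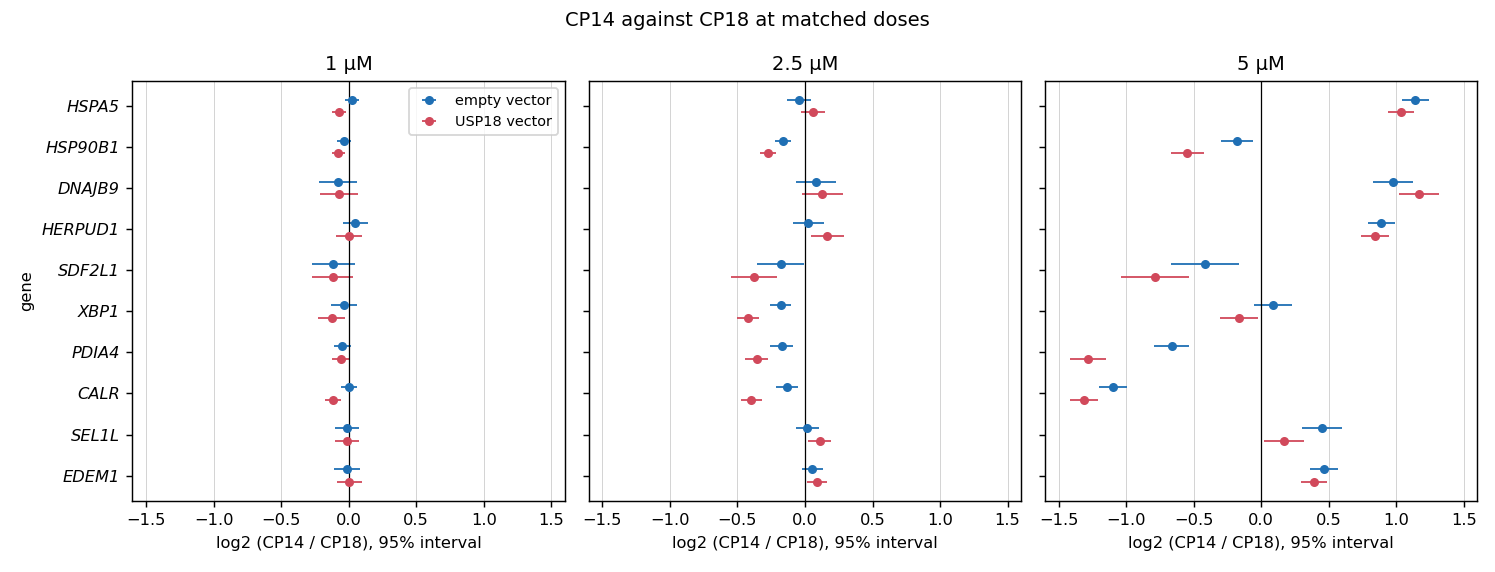
Log2 difference between CP14 and CP18 at 1, 2.5 and 5 µM for each of the 10 genes in EV (blue) and USP18 cells (red), as points with 95% intervals; positive values are higher with CP14. The intervals lie close to 0 at 1 µM, and at 5 µM HSPA5 reaches 1.14 in EV cells and CALR -1.32 in USP18 cells.

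At 2.5 µM CP14 lowered several genes below their level with CP18. In USP18 cells 6 genes passed (background 28.2%): XBP1 (-0.42 ± 0.038 (SE, adjusted p = 4.1e-07)), CALR (-0.40 ± 0.038 (SE, adjusted p = 9.7e-07)), SDF2L1 (-0.38 ± 0.081 (SE, adjusted p = 0.00174)), PDIA4 (-0.36 ± 0.040 (SE, adjusted p = 4.5e-06)) and HSP90B1 (-0.27 ± 0.028 (SE, adjusted p = 1.8e-06)) were lower with CP14, and HERPUD1 was higher by 0.17, lost without any 1 of 5 libraries, with DESeq2 and with only the 2 groups. In EV cells XBP1 (-0.18), PDIA4 (-0.17) and HSP90B1 (-0.16) passed, each lower with CP14 (background 0.974%), but PDIA4 was lost in 6 of the 6 fits without 1 library, XBP1 in 5 and HSP90B1 in 2. At 1 µM 0 genes passed in EV cells (0 with DESeq2 and 0 at an unadjusted p under 0.05; background 0.0191%) and 0 in USP18 cells (2 of 7 with an adjusted p from DESeq2 and 4 at an unadjusted p under 0.05; background 0.0191%), and the bound of a 95% interval farthest from 0 was 0.27 on the log2 scale in both. CP2 and CP18 were not told apart at 5 µM in either vector by edgeR or DESeq2. The bound of a 95% interval farthest from 0 was 0.38 in EV cells (0 genes at an unadjusted p under 0.05, background 0.0257%). In USP18 cells it was 0.28, with 1 gene at an unadjusted p under 0.05 (background 0.00641%). That gene was XBP1, at -0.14 (interval -0.26 to -0.024). These bounds limit the difference without showing that the compounds act alike. CP2 and CP14 at 5 µM differed in 9 genes in EV cells (background 59.4%) and 8 in USP18 cells (background 67.5%). The log2 difference of CP2 from CP14 was -1.10 in EV and -1.01 in USP18 cells for HSPA5, and 1.08 and 1.34 for CALR; CP2 at 2 µM had no matched dose of another compound.

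Ordering the 18 group means shows how far each gene ranged. CALR (2.99-fold between its highest and lowest group), HERPUD1 (2.98-fold) and PDIA4 (2.95-fold) ranged most, and SEL1L (1.37-fold) least. HSPA5 was highest with 5 µM CP14 in USP18 cells (1779.8 ± 99.6 CPM) and next in EV cells (1664 ± 34.8), both apart from their neighbours in the order. Vehicle in USP18 cells followed (1013 ± 12.3). The lowest HSPA5 means, alike at the digits given, were with 1 µM CP18 (705 ± 5.81) and 2 µM CP2 (705 ± 11.1) in EV cells. CALR and PDIA4 were highest with vehicle in USP18 cells (741 ± 4.10 and 490.0 ± 5.74 CPM) and lowest with 5 µM CP14 in USP18 cells (248 ± 10.2 and 166 ± 19.2 CPM). HERPUD1 ranged from 38.4 ± 0.899 CPM (2.5 µM CP18, USP18 cells) to 114 ± 2.54 CPM (5 µM CP14, EV cells). For XBP1, highest with vehicle in USP18 cells (198 ± 5.70) and lowest with 5 µM CP14 in USP18 cells (106 ± 9.97 CPM), 16 of the 17 pairs of neighbouring groups overlapped, and the exception was the vehicle group of USP18 cells, which lay above every library of the next group (2 µM CP2, USP18 cells). Neighbours overlapped in 17 of 17 pairs for SEL1L, 15 for DNAJB9 and SDF2L1, 14 for EDEM1, 13 for HERPUD1, 12 for HSPA5, 11 for HSP90B1 and CALR, and 10 for PDIA4.

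The rest of the pathway was examined with lists of genes at 5 µM CP14. Of 16 other ER chaperones and folding enzymes, 8 were higher and 6 lower in EV cells, but 2 higher and 12 lower in USP18 cells, with median log2 fold changes of 0.0016 and -0.45. The largest changes in EV cells were in HYOU1, an ER relative of HSP70 (0.94 ± 0.035 (SE, adjusted p = 1.4e-15)), CRELD2 (-0.82 ± 0.089 (SE, adjusted p = 5.8e-08)) and DNAJC10, a disulfide reductase (0.66 ± 0.041 (SE, adjusted p = 6.8e-12)). In USP18 cells they were in CRELD2 (-1.21 ± 0.090 (SE, adjusted p = 1.1e-10)), MANF (-0.93 ± 0.055 (SE, adjusted p = 2.7e-12)) and TXNDC5 (-0.86 ± 0.040 (SE, adjusted p = 3.0e-14)). Of 12 other ERAD genes tested (13 listed), 9 were higher and 2 lower in EV cells and 6 higher and 4 lower in USP18 cells; EDEM2 (-0.59 and -0.85) and VCP, the ATPase that pulls substrates from the membrane (-0.53 and -0.65), fell in both, SELENOS rose by 0.57 in EV cells and ERLEC1 changed by -0.55 in USP18 cells. Among 10 ER translocation genes, 6 were higher and 1 lower in EV cells, led by SEC63 (0.59), SEC61A1 (0.51) and SEC61G (0.44), whereas 4 were higher and 4 lower in USP18 cells, with SPCS2 (-0.42), SSR1 (-0.42) and SEC62 (-0.35) changing most. These counts stand beside calls for 63.2% and 68.6% of all genes. The difference between the vectors, tested as the interaction, was called negative (a lower log2 fold change in USP18 cells) in 14 of the 16 ER chaperones (median -0.53), 7 of the 12 ERAD genes and 8 of the 10 translocation genes and positive in 0 of each, where 14.4% of all genes were called negative and 13.3% positive. With vehicle, 13 of these 16 ER chaperones were already higher in USP18 cells and 1 lower. Of the ERAD genes 7 were higher and 2 lower, and of the translocation genes 4 and 2. Over all genes 29% were higher and 28.7% lower. The same vehicle libraries enter these differences and the interaction, for each list here and below.

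Genes listed under the PERK-ATF4 branch rose together at this dose. The activity of PERK was not measured, and what raised these mRNAs was not tested. All 8 of the list were higher in EV cells and in USP18 cells, with median log2 fold changes of 2.37 and 2.78, where 31% and 34.4% of all genes were called higher and 32.1% and 34.3% lower, shares that hold for each list at this dose. The interaction was called positive in 5 of the 8, 2 of them above 1 on the log2 scale, with a median of 0.41 over the list. It was called negative in 2 (CHAC1 at -1.14 and ASNS at -0.68). Over all genes tested the interaction was called positive in 13.3% and negative in 14.4%, for comparison with each list in this paragraph. ATF3, a stress transcription factor, rose by 2.86 ± 0.089 (SE, adjusted p = 6.5e-17) in EV and 3.53 ± 0.078 (SE, adjusted p = 2.1e-19) in USP18 cells on the log2 scale. DDIT3 (CHOP) rose by 2.38 ± 0.089 (SE, adjusted p = 1.3e-15) and 3.60 ± 0.081 (SE, adjusted p = 2.7e-19), CHAC1 by 2.81 ± 0.12 (SE, adjusted p = 6.5e-15) in EV cells and PPP1R15A, which restarts translation, by 3.14 ± 0.059 (SE, adjusted p = 1.7e-20) in USP18 cells. Among 6 sensors and their proteases, 2 rose and 3 fell in both vectors. ERN1 rose by 1.36 ± 0.051 (SE, adjusted p = 1.4e-15) and 1.68 ± 0.047 (SE, adjusted p = 8.9e-18), and ATF6 by 0.58 and 0.40, whereas MBTPS1 changed by -0.28 in EV cells and MBTPS2 by -0.57 in USP18 cells; both encode proteases that cut ATF6. Of 10 chaperones of the cytosol and mitochondria, 9 fell and 1 rose in EV cells and 8 fell and 1 rose in USP18 cells, led by HSPE1 (-1.05 and -1.20) and HSP90AA1 (-0.76 and -0.94), then STIP1 (-0.59) in EV and HSPA8 (-0.91) in USP18 cells. The 1 that rose in both was HSPA9, a mitochondrial chaperone (0.47 and 0.58), named after its values were seen. The interaction was called in 3 of the 6 sensors and proteases. It was positive for ERN1 (0.31) and negative for MBTPS2 (-0.32) and ATF6 (-0.18, lost in 8 of 18 alternatives). It was negative in 5 of the 10 chaperones of the cytosol and mitochondria, with 3 to 7 calls without 1 library (3 without vehicle replicate 1 of EV or of USP18 cells or CP14 replicate 3 of EV cells).

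**Figure D4:**
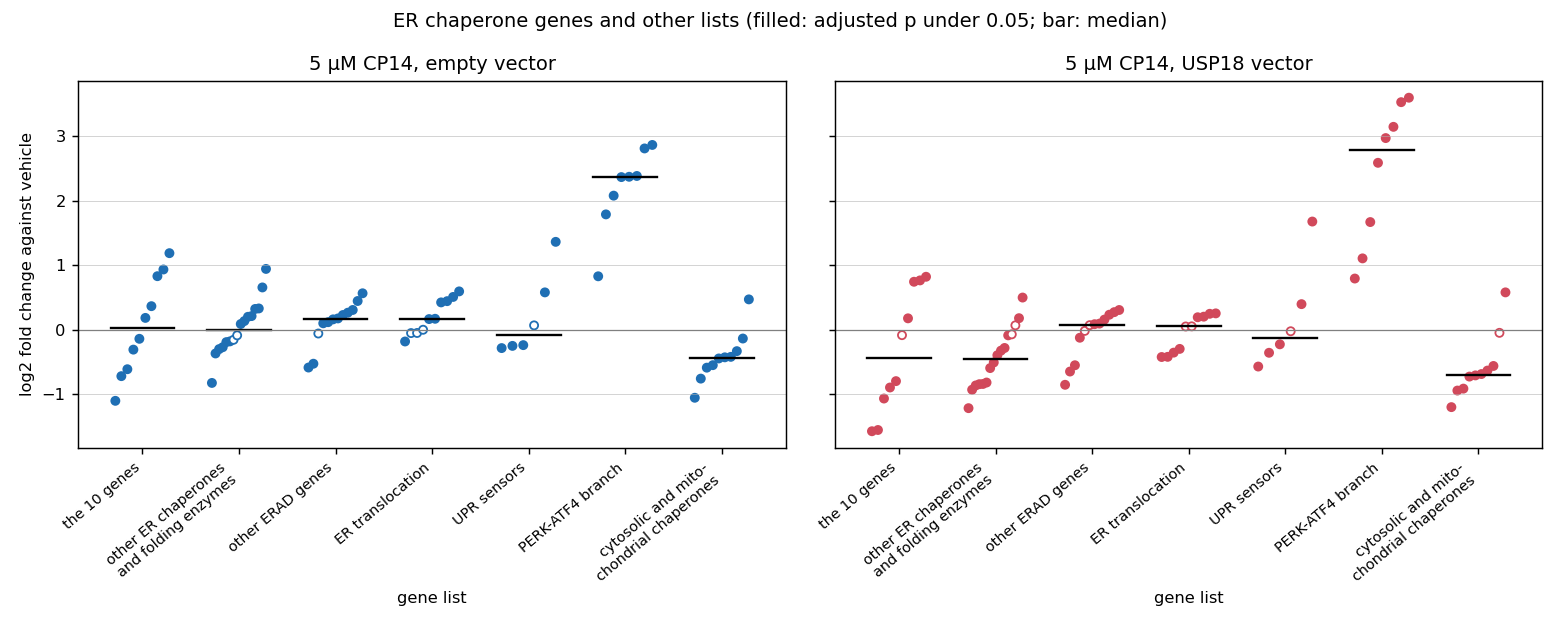
Log2 fold change with 5 µM CP14 against vehicle for the 10 genes and for the genes of 6 pathway lists, in EV and USP18 cells; each point is a gene, filled where the adjusted p was under 0.05, and bars mark medians. The PERK-ATF4 genes sit above 0 with medians of 2.37 and 2.78, while the 10 ER genes spread on both sides of 0 with medians of 0.022 and -0.44.

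The 6 lists were also examined at 2.5 µM CP14, 5 µM CP2 and 5 µM CP18, first in USP18 cells. Of the other ER chaperones, 13 of 16 were lower and 2 higher at 2.5 µM CP14 (16.4% of all genes were lower and 16.3% higher). The count was 12 of 16 lower and 0 higher both at 5 µM CP2 (10.3% lower) and at 5 µM CP18 (6.4% lower). At 2.5 µM CP18 and 1 µM CP14, which lowered 9 and 8 of the 10 genes, 8 and 7 of the 16 were lower and 0 higher (7% and 7.94% of all genes were lower). The remaining treatments had fewer calls. At 1 µM CP18 3 of the 16 were lower and 1 higher (8% of all genes were lower), and at 2 µM CP2 4 were lower and 0 higher (0.816% were lower). ERO1B, an oxidase that recharges disulfide isomerases, fell most with 2.5 µM CP14, 5 µM CP2 and 5 µM CP18, with log2 fold changes of -0.56, -0.49 and -0.50. CRELD2 followed with -0.48, -0.29 (lost in 2 of 13 alternatives) and -0.43. The third in size was MANF at 2.5 µM CP14 (-0.41) and 5 µM CP18 (-0.25) and P4HB at 5 µM CP2 (-0.20). Medians over the list were -0.24, -0.17 and -0.18, against 0.0051, -0.0099 and -0.011 over all genes. Without 1 library, 6 to 10 calls were left at 5 µM CP18 (6 without vehicle replicate 3 or CP18 replicate 1). There were 5 to 7 at 2.5 µM CP18 (5 without vehicle replicate 2 or 3 or CP18 replicate 1) and 3 to 7 at 1 µM CP14 (3 or 4 without any vehicle library or CP14 replicate 1 or 2). Of the 12 other ERAD genes tested, 7 were lower and 1 higher at 2.5 µM CP14 (16.4% and 16.3% of all genes). The counts were 3 lower and 1 higher at 5 µM CP2 (10.3% and 8.65%) and 3 lower and 0 higher at 5 µM CP18 (6.4% lower). The 1 higher gene at 5 µM CP2, VCP, was lost in 8 of 13 alternatives. EDEM2 (-0.55, -0.27 and -0.37), SYVN1, the ligase partner of SEL1L (-0.46, -0.23 and -0.33), and ERLEC1 (-0.33, -0.30 and -0.32) changed most in each. Among the 10 translocation genes 3, 3 and 1 were lower and 0 higher, SSR1 in each (-0.20, -0.22 and -0.21), against 16.4%, 10.3% and 6.4% of all genes lower. The other calls at 5 µM CP2, SPCS3 and SEC63, were each lost in 5 of 13 alternatives. Of the 6 sensors and proteases 3, 4 and 2 were lower and 0 higher, in the same order of treatments and against the same shares. MBTPS2 was lower in each (-0.19, -0.18 and -0.23, lost in 0, 3 and 5 of 13 alternatives). ERN1 was lower with CP2 (-0.42) and CP18 (-0.25, lost in 3 of 13). Without 1 library, 1 or 2 of the calls for this list were left with 2.5 µM CP14 (1 without vehicle replicate 2 or 3 or CP14 replicate 1 or 2). With 5 µM CP2 there were 2 to 4 (2 without vehicle replicate 1 or CP2 replicate 1), and with 5 µM CP18 0 to 2 (0 without vehicle replicate 1 or 3 or CP18 replicate 1).

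Genes of the PERK-ATF4 branch rose in USP18 cells in 8 of 8 with 2.5 µM CP14 (16.3% of all genes were higher), led by ASNS (1.10 ± 0.074 (SE, adjusted p = 6.1e-09)), TRIB3 (1.01 ± 0.11 (SE, adjusted p = 1.2e-06)) and DDIT3 (0.67 ± 0.14 (SE, adjusted p = 0.00105)). Of these 8 calls, ATF4 was lost in 5 and CHAC1 in 6 of 13 alternatives, both with overlapping groups, and 6 to 8 calls were left without 1 library. With 5 µM CP2, 1 of 8 rose, ASNS (0.26), a share near the 8.65% of all genes that were higher. With 5 µM CP18, 2 of 8 rose (4.32% of all genes were higher), ASNS (0.43) and PPP1R15A (0.19, lost in 5 of 13 alternatives). Of the chaperones of the cytosol and mitochondria 9 of 10 rose with 5 µM CP2 (8.65% of all genes tested were higher) and 9 of 10 with 5 µM CP18 (4.32%), and none was called lower. With 2.5 µM CP14, 5 of 10 rose (16.3%), and the other 5 had values from -0.083 to -0.0050 that did not pass the test. In USP18 cells HSP90AA1 rose by 0.45 with CP2 and 0.43 with CP18, DNAJA1 by 0.42 and 0.39 and HSPA8 by 0.41 and 0.38. With 2.5 µM CP14 HSPA9 (0.28), HSPA8 (0.27) and DNAJA1 (0.18) changed most.

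In EV cells the chaperones of the cytosol and mitochondria rose in 7 of 10 with 2.5 µM CP14 (7.06% of all genes were higher), 9 of 10 with 5 µM CP2 (5.31%) and 9 of 10 with 5 µM CP18 (4.09%), and 0 were called lower. HSP90AA1 rose by 0.29, 0.36 and 0.38 in the same order. At 2.5 µM CP14, 4 of the 7 calls were left without vehicle replicate 1 or 2 or CP14 replicate 2 or 3. Their interaction was called negative in 3 of 10 and positive in 0 at 2.5 µM CP14 (3.92% of all genes were negative). These were HSPH1 (-0.22, lost in 3 of 18 alternatives), STIP1 (-0.19) and HSP90AB1 (-0.14, lost in 7). There was 1 call without vehicle replicate 2 of EV cells, vehicle replicate 3 of USP18 cells or CP14 replicate 1 of EV cells, and 5 without CP14 replicate 3 of USP18 cells. At 1 µM the interaction of this list had the opposite sign, called positive in 5 of 10 and negative in 0 with CP14 and likewise with CP18. The medians were 0.12 and 0.16, against -0.0043 and 0.0050 over all genes. Values were above 0 in 9 and 10 of the 10, beside 49.0% and 51.0% of all genes. In USP18 cells edgeR called 7 of the 10 higher with CP14 and 8 with CP18, and in EV cells 0 with each. The shares of all genes called positive or higher at 1 µM are not given here. With vehicle, 5 of the 10 were lower in USP18 than in EV cells and 1 higher. The same vehicle libraries enter that difference and the interaction. The counts of this list at 1 µM were not tried in the alternatives. Of the 16 other ER chaperones in EV cells 4 were lower and 1 higher with 2.5 µM CP14 (8.07% and 7.06% of all genes; 2 or 3 calls without any 1 library). They were 2 lower and 0 higher with 5 µM CP2 (6.83% were lower; 0 calls without vehicle replicate 1 or 2). With 5 µM CP18 0 were lower and 1 higher (4.3% and 4.09%), MANF (0.17), lost in 8 of 13 alternatives. Their interaction was called negative in 7 and positive in 1 with 2.5 µM CP14 (3.92% and 4.08% of all genes). It was negative in 1 with 5 µM CP2 (0.654%) and in 1 with 5 µM CP18 (0.223%), MANF in both. That call for MANF was lost in 10 of 18 alternatives with CP2 and in 1 with CP18. Of the 12 ERAD genes in EV cells 2 were lower with 2.5 µM CP14 (8.07%), SYVN1 (-0.30) and EDEM2 (-0.25). Of these 12, 1 was lower with 5 µM CP2 and 1 with 5 µM CP18 (6.83% and 4.3% of all genes), and 0 were higher with any of the 3. Their interaction was called negative in 4 at 2.5 µM CP14 (3.92%), led by EDEM2 (-0.30). That of the translocation genes was negative in 2, SEC62 (-0.19) and SSR1 (-0.15, lost in 13 of 18 alternatives). The sensor ERN1 was lower in EV cells with each treatment (-0.21, -0.23 and -0.27, lost in 4, 3 and 4 of 13 alternatives). ATF6 was lower with 5 µM CP2 (-0.13, lost in 9), which made 1, 2 and 1 of the 6 sensors and proteases against 8.07%, 6.83% and 4.3% of all genes. By edgeR 0 of the 10 translocation genes were called in EV cells with 2.5 µM CP14, 5 µM CP2 or 5 µM CP18. Of these, 2, 1 and 2 had an unadjusted p under 0.05 and DESeq2 called 0 in each. Of the 8 PERK-ATF4 genes in EV cells 1 was higher (ASNS, 0.59) and 1 lower (PPP1R15A, -0.40) with 2.5 µM CP14, near the shares of all genes (7.06% and 8.07%). With 5 µM CP2, 1 was higher (5.31%), again ASNS (0.30), and with 5 µM CP18 3 were higher (4.09%), led by ATF3 (0.68). With 2.5 µM CP14 their interaction was called positive in 6 of 8 (4.08% of all genes; median 0.72), led by TRIB3 (0.97 ± 0.16 (SE, adjusted p = 0.00104)), but in 3 of 8 without CP14 replicate 3 of EV cells. Beyond MANF, edgeR called the interaction in 0 of the 46 genes of the other 5 lists at 5 µM CP2 (9 had an unadjusted p under 0.05 and DESeq2 called 2). It called 0 of them at 5 µM CP18 (8 and 1) and 0 of the 6 sensors and proteases at 2.5 µM CP14 (2 and 0).

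Finally, the 10 genes were compared with each other and with all 16836 genes kept over 54 libraries, by the Pearson correlation of their group means minus vehicle over the 16 treated groups, a description in which the points share their vehicle libraries and 2 of them (5 µM CP14) lie far from the rest. Of the 10 genes 8 fell into 2 sets. HERPUD1 (r = 0.98), DNAJB9 (0.94) and EDEM1 (0.82) followed HSPA5, and PDIA4 (0.97), SDF2L1 (0.95) and HSP90B1 (0.83) followed CALR, while HSPA5 and CALR ran opposite ways (-0.83). XBP1 (-0.097 with HSPA5 and 0.52 with CALR) and SEL1L (0.59 and -0.41) followed neither closely. The genes most like the mean of the 10 were PLEKHG2 (0.98), VEGFC (0.96), LRP10 (0.95), LRP12 (0.95) and RFK (0.94); PLEKHG2, for example, differed from vehicle by -0.043 and -0.56 with 5 µM CP14 in EV and USP18 cells. Since that mean mixes both sets, likeness to HSPA5 and to CALR alone was added after the data were seen. Nearest to HSPA5 were VEGFA, C16orf45 and STX1A (r = 0.99 each) and ZFP28 and CAPRIN2 (0.98 each), with log2 differences of 1.22 and 0.89 for VEGFA at 5 µM CP14 in EV and USP18 cells. Nearest to CALR were EDN1, FDFT1, ACAT2, AKAP8 and LRPAP1 (r = 0.99 each), with log2 differences of -1.08 and -1.70 for EDN1 and -1.93 and -2.58 for ACAT2 at that dose.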

How the data were processed

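RNA of 54 A549 libraries was sequenced, and the authors trimmed reads with cutadapt 1.18, aligned them with STAR 2.7.0f to hg38 and estimated counts per gene with RSEM 1.3.1, per the labels. The deposited values are expected counts, not scaled between libraries, and 94.0% were whole. The labels describe poly(A) capture and the methods removal of ribosomal RNA, and the methods name a mouse annotation for RSEM while the identifiers are human. Identifiers were matched to GENCODE for GRCh38 coordinates and transcript lengths.

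Expected counts were rounded and tested in R 4.3.3 with edgeR 4.0.16 and limma 3.58.1, with TMM scaling and low genes removed by filterByExpr (minimum count 10, minimum total 15); p-values of the quasi-likelihood test were adjusted over all genes tested after Benjamini and Hochberg; log2 CPM had a prior count of 2. Each compound and dose was fitted with vehicle in both vectors (12 libraries), the vectors on the 6 vehicle libraries, and compound pairs on their 12 libraries. A call needed an adjusted p under 0.05. Standard errors of fold changes were computed as the absolute log2 fold change divided by the square root of edgeR's F statistic. The 95% intervals were built from these errors and can be narrower than the p-value of the same test implies. The members and lists were chosen with earlier results of these data known. Named genes are the 10 in every comparison, the 5 most like each of their mean, HSPA5 and CALR, the marker genes and USP18. In each list described, mostly up to 3 called genes with the largest change are named. Other list genes are named where a call was lost in an alternative or went against most of its list. No library repeated another (in 54 pairs of replicates, chi-square divided by the number of genes was 1.80 to 11.1). The leukocyte marker list as a whole is not reported here.

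The alternatives tried were DESeq2 1.42.0, RLE in place of TMM, a looser filter (any count above 0) and a stricter one (10 counts in each library of the fit), the replicate number as a block, fits of just the 2 groups or of all 54 libraries, and fits without each library; leaving out libraries for the lists, and the alternatives for their interactions, were added after seeing the data. Figures were drawn with Python 3.11.15 and matplotlib 3.10.9.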

Additional observations from a re-analysis of the deposited data

Results flagged for a closer look

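The response to a compound differed between USP18 and EV cells in 29 of the 80 tests of the interaction (edgeR, adjusted p under 0.05), and each of these is listed with its log2 value, where a negative value means a lower log2 fold change in USP18 cells, such as a larger fall or a smaller rise. With 5 µM CP2 the genes were HSPA5 (-0.30), HSP90B1 (-0.27), XBP1 (-0.38), PDIA4 (-0.21) and CALR (-0.23). With 1 µM CP14 the genes were HSPA5 (-0.11), HSP90B1 (-0.12), XBP1 (-0.29), PDIA4 (-0.14), CALR (-0.11), SEL1L (-0.21) and EDEM1 (-0.23). With 2.5 µM CP14 the genes were HSP90B1 (-0.24), XBP1 (-0.41), PDIA4 (-0.32) and CALR (-0.38). With 5 µM CP14 the genes were HSPA5 (-0.37), HSP90B1 (-0.66), HERPUD1 (-0.19), SDF2L1 (-0.45), XBP1 (-0.59), PDIA4 (-0.83), CALR (-0.47), SEL1L (-0.27) and EDEM1 (-0.19). With 1 µM CP18 the genes were SEL1L (-0.21) and EDEM1 (-0.25). With 5 µM CP18 the genes were HSPA5 (-0.26) and HSP90B1 (-0.29). The calls lost without single libraries are given with the interactions above; that for SEL1L with 1 µM CP18 was lost in 4 of 12 such fits. The log2 fold change of USP18 mRNA itself in USP18 cells was 0.64, -0.14 and -0.33 with 5, 2.5 and 1 µM CP14. It was -0.24 and -0.41 with 5 and 1 µM CP18 and -0.051 (not called) with 5 µM CP2. Its part in the differences was not tested.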

How the results depend on the processing

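Among the 350 tests of a single gene of the 10 and the 344 calls of list genes tried in the alternatives, no called value changed direction under an alternative. Other calls of list genes counted in the text were not tried. They were those at 1 µM CP18, at 2 µM CP2 and between the vectors with vehicle. The calls of chaperones of the cytosol and mitochondria at 1 µM, with their interactions, were not tried either. Of the 350 tests of a single gene, 348 kept their side of the threshold with RLE size factors, 348 with at least 10 counts in every library, 342 with the replicate block, 337 with no filter beyond a count above 0, and 325 with all 54 libraries in 1 fit. DESeq2 gave an adjusted p for 337 of the 350, of which 314 kept their side, 20 were newly called and 3 lost; the 13 without one were tests of SDF2L1, DNAJB9 and HERPUD1. Of the 344 calls of list genes, 259 were kept in every alternative that gave an adjusted p. Some counts of called genes among the 10 moved by over 1.5 times. For 2 µM CP2 in EV cells, 2 genes became 1 with no filter, the replicate block, only the 2 groups and all 54 libraries; in USP18 cells 2 became 4 with DESeq2 and 1 with all 54. For 5 µM CP2 in EV cells 3 became 5 with DESeq2. For CP18 in EV cells, 2 became 1 at 2.5 µM with all 54 libraries and 1 at 5 µM with only the 2 groups. Interactions changed from 7 to 2 at 1 µM CP14 with all 54 libraries; from 2 at 1 µM CP18 to 4 with the replicate block, 5 with DESeq2 and 1 with all 54; from 0 at 2.5 µM CP18 to 4 with DESeq2; and from 2 at 5 µM CP18 to 4 with no filter, 1 with the replicate block, 5 with DESeq2 and 4 with all 54. Between CP14 and CP18 at 1 µM in USP18 cells, 0 became 1 with no filter and 2 with DESeq2. The cause was not tested.

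Counts of list genes moved as follows. For the other ER chaperones in EV cells, 5 became 3 with no filter and 2 with all 54 libraries at 2.5 µM CP14, 2 became 0 with only the 2 groups and 4 with all 54 at 5 µM CP2, and 1 became 0 with RLE size factors, no filter and only the 2 groups and 3 with DESeq2 and all 54 at 5 µM CP18. In USP18 cells, 7 became 4 with no filter and all 54 at 1 µM CP14, and 8 became 3 with all 54 at 2.5 µM CP18. Their interactions changed from 1 to 2 with no filter, 4 with DESeq2 and 2 with all 54 at 5 µM CP2, and from 1 to 4 with each of these at 5 µM CP18. For the ERAD genes in EV cells, 1 became 2 with DESeq2 and all 54 and 0 with only the 2 groups at 5 µM CP2, and 1 became 2 with RLE size factors, at least 10 counts and DESeq2, 0 with only the 2 groups and 3 with all 54 at 5 µM CP18. In USP18 cells 3 became 6 with only the 2 groups and 5 with all 54 at 5 µM CP18, and the interaction at 5 µM CP2 went from 0 to 1 with at least 10 counts and DESeq2. For the translocation genes, 0 became 1 with all 54 at 5 µM CP2 in EV cells, 1 became 2 with only the 2 groups at 5 µM CP18 in USP18 cells, and interactions at 2.5 µM CP14 went from 2 to 1 with the replicate block and DESeq2 and 0 with all 54. For the sensors and proteases in EV cells, 2 became 1 with the replicate block, DESeq2 and all 54 and 0 with only the 2 groups at 5 µM CP2, and 1 became 2 with no filter and DESeq2, 0 with only the 2 groups and 3 with all 54 at 5 µM CP18. In USP18 cells 3 became 1 with no filter and DESeq2 at 2.5 µM CP14, and 2 became 5 with only the 2 groups and all 54 at 5 µM CP18; the interaction at 2.5 µM CP14 went from 0 to 1 with no filter, at least 10 counts and all 54. PERK-ATF4 interactions went from 0 to 1 at 5 µM CP18 with RLE size factors, no filter and DESeq2. Those of the chaperones of the cytosol and mitochondria went from 0 to 1 with DESeq2 at 5 µM CP2 and from 3 to 5 with no filter and DESeq2 at 2.5 µM CP14.

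Without 1 library the counts for the 10 genes ranged from 1 to 2 (2 µM CP2, EV), 2 to 5 (5 µM CP2, EV), 1 to 2 (2.5 µM CP18, EV), 1 to 3 (5 µM CP18, EV; 1 without vehicle replicate 2), 2 to 7 (interaction at 1 µM CP14; 2 without vehicle replicate 3 of EV or of USP18 cells or CP14 replicate 2 of EV cells), 1 to 4 (interaction at 1 µM CP18), 0 to 3 (interaction at 5 µM CP18) and 0 to 2 (CP14 against CP18 at 2.5 µM, EV; 0 without CP14 replicate 1 or CP18 replicate 3). For the other ER chaperones they ranged from 6 to 10 (5 µM CP18, USP18), 5 to 7 (2.5 µM CP18, USP18), 3 to 7 (1 µM CP14, USP18), 2 to 3 (2.5 µM CP14, EV), 0 to 3 (5 µM CP2, EV), 0 to 1 (5 µM CP18, EV), 0 to 1 (interaction, 5 µM CP2) and 0 to 4 (interaction, 5 µM CP18; 0 without vehicle replicate 1 of EV cells, 4 and 2 without CP18 replicates 1 and 3 of EV cells). For the ERAD genes in EV cells they were 0 to 3 with 5 µM CP2 (0 without vehicle or CP2 replicate 1, 3 and 2 without vehicle and CP2 replicate 3) and 0 to 2 with 5 µM CP18 (0 without vehicle replicate 1, 2 without CP18 replicate 3). For the translocation genes they were 1 to 2 (5 µM CP2, USP18; 1 without vehicle replicate 2 or CP2 replicate 1 or 3), 0 to 2 (5 µM CP2, EV; 1 without vehicle replicate 3, 2 without CP2 replicate 1), 0 to 1 (5 µM CP18, EV; 1 without CP18 replicate 3) and 1 to 2 (interaction, 2.5 µM CP14). For the sensors and proteases they were 1 to 2, 2 to 4 and 0 to 2 in USP18 cells with 2.5 µM CP14, 5 µM CP2 and 5 µM CP18, 0 to 1, 0 to 2 and 0 to 2 in EV cells, and 0 to 1 for the interaction at 2.5 µM CP14. PERK-ATF4 counts were 1 to 2 (5 µM CP18, USP18), 3 to 8 (interaction, 2.5 µM CP14) and 0 to 2 (interaction, 5 µM CP18; 2 without CP18 replicate 3 of EV cells). Those of the chaperones of the cytosol and mitochondria were 4 to 7 (2.5 µM CP14, EV), 1 to 5 (interaction, 2.5 µM CP14), 3 to 7 (interaction, 5 µM CP14) and 0 to 1 (interaction, 5 µM CP2; 1 without CP2 replicate 1 or 3 of EV cells).

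Calls also lost with all 54 libraries in 1 fit were, beside the counts above, SDF2L1 for USP18 against EV cells with vehicle, SDF2L1 at 5 µM CP2 in USP18 cells, PDIA4 in the interaction at 5 µM CP2, and SDF2L1 and SEL1L at 2.5 µM CP14 and SEL1L at 2.5 µM CP18 in EV cells; XBP1 between CP14 and CP18 at 2.5 µM in EV cells was lost as well. With only the 2 groups, EDEM1 at 5 µM CP2 in EV cells was lost. At 5 µM CP14 the counts of called genes among the 10 stayed at 10 in EV cells and at 9 to 10 in USP18 cells.

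Replicate numbers are shared by all groups but do not pair libraries: in 0 of 27 comparisons were all correlations of same-numbered deviations over 0.1 (they ran from -0.118 to 0.111), and 18 of 54 libraries correlated best with their own number. RLE and TMM scaling differed by at most 0.013 in the median log2 fold change. The lowest count of the 10 genes was 222. At 5 µM CP14 in EV cells the SE was 0.077 for SDF2L1 and 0.071 for DNAJB9, against 0.037 for HSPA5; the part of depth in this was not tested.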
